A study of Homo sapiens with 12 samples.

Results

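The semaphorins and their plexin and neuropilin receptors were read in temozolomide (TMZ)-sensitive and TMZ-resistant cells of 2 glioblastoma cell lines. Members were the protein-coding genes whose symbols name a vertebrate semaphorin of classes 3 to 7, a plexin or a neuropilin, which gave 31 of the 58174 gene identifiers in the tables: 7 secreted class 3 semaphorins, 6 class 4 semaphorins, 7 semaphorins of classes 5 to 7, 9 plexins and 2 neuropilins. The mRNA-seq held 12 libraries, 3 in each of 4 groups, named U87 sensitive, U87 resistant, U118 sensitive and U118 resistant. U87 and U118 are long-established human glioblastoma lines grown in serum medium. In both lines the cells had first been depleted of the stem-like fraction by sorting for the absence of the surface markers CD133 and CD15, and all groups were kept in serum with the growth factor BMP2, which holds glioma cells in a differentiated state. The sensitive cells are the untreated controls of the study, and the resistant cells grew out as aggregations from survivors of continuous TMZ, an alkylating drug used against glioblastoma, at 50 μM. The resistant libraries therefore describe the offspring of the cells that grew back, not all cells that met the drug.

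Semaphorins are guidance cues, first studied as repellents of growing axons. Secreted class 3 semaphorins bind neuropilins, which pass the signal on through plexin A receptors, while the membrane-bound classes bind plexins directly and SEMA7A, anchored to the membrane by a lipid, also binds integrin beta 1. Activated plexins switch off small GTPases of the Ras and Rap families and loosen the attachment of the cell to its matrix. Neuropilins are shared with the vascular endothelial growth factors, and in glioma the family is best known for its part in invasion and vessel growth.

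In both lines, as labelled, the neuropilin NRP2 was higher in resistant cells, and the class B plexin PLXNB1, the receptor of SEMA4D, was lower. Over all genes the libraries labelled U118 resistant lay nearer to the U87 libraries than to the U118 sensitive ones. In U87 the rise of PLXNB2 and the falls of SEMA7A, SEMA6B and PLXND1 were the other called changes. In the libraries labelled U118 resistant, SEMA3F, SEMA3A, SEMA3C and SEMA3E were lower, as were SEMA5A, SEMA6D, PLXNC1 and PLXNA4, and SEMA4B, SEMA4D, SEMA6B and PLXND1 were higher. Levels are TPM, transcript levels scaled to a fixed total per library and corrected for transcript length, so that levels of different genes can be set side by side. Errors of levels are SDs over the 3 libraries of a group. Changes are differences of mean log2(TPM + 1), resistant minus sensitive, with standard errors, and they understate the change of genes at low levels. A gene was called when limma's adjusted p was under 0.05 and the change was at least 1 in size. The labels do not say that the 3 libraries of a group came from separate cultures, so the p-values measure only the spread between these libraries, which may be technical. An exact permutation test of 3 against 3 libraries cannot give a p under 0.1 and was not used for single genes.

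Over all genes, the libraries labelled U118 resistant lay nearer to the U87 libraries than to the U118 sensitive ones. Across 16382 genes, their Spearman correlation with the U118 sensitive libraries was 0.8083 to 0.8385, whereas it was 0.8952 to 0.9091 with U87 sensitive and 0.907 to 0.9135 with U87 resistant libraries. The U118 sensitive and U87 sensitive libraries correlated at 0.7829 to 0.8312, and libraries within a group at 0.9604 to 0.9879. Between the U118 groups 79 genes went from at least 10 TPM in all sensitive libraries to under 0.1 TPM in all resistant ones, and 65 of these were under 1 TPM in all 6 U87 libraries. In the other direction 38 genes switched, and 30 of them were at 1 TPM or more in all 6 U87 libraries. Not every gene followed this pattern. The marker THY1 was at 213 to 458.6 TPM in U118 sensitive and 51.2 to 103.5 TPM in U118 resistant libraries. No U87 library held more than 0.127 TPM of THY1. Of the same list of fibroblast markers, PDGFRA, DCN and LUM did follow it. PDGFRA was at 71.8 to 88.3 TPM in U118 sensitive and 0.0716 to 0.105 TPM in U118 resistant libraries. DCN was at 32.9 to 39.6 TPM and 0.224 to 1.06 TPM, and LUM at 18.5 to 29.9 TPM and 1.83 to 2.48 TPM. U87 libraries held at most 0.311 TPM of PDGFRA, 1.94 TPM of DCN and 5.77 TPM of LUM. Why the U118 resistant libraries lay nearer to U87 than to U118 sensitive cells was not tested, and every U118 difference below is one between libraries so labelled. No U118 comparison can be made without them, and the U87 comparison does not use them. Among the 25 members that could be compared, 16 (64%) were nearer in the U118 resistant mean to U87 sensitive than to U118 sensitive cells on the log2 scale, beside 65.6% of all genes, and 20 (80%) were nearer to U87 resistant than to U118 sensitive cells, beside 65.7%.

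Markers described the same libraries. VIM, an intermediate filament of glioma cells, gave nearly all of the summed level of 9 glial markers, which was 4440 to 7184 TPM, while the astrocyte genes GFAP and AQP4 were at or near 0. The summed level of 8 myeloid markers was 5.47 to 7.25 TPM in U87, 1.54 to 1.99 TPM in U118 sensitive and 10.8 to 17.0 TPM in U118 resistant libraries, most of it from CSF1R, with AIF1, TYROBP, C1QA and FCGR3A at 0. The 8 endothelial markers summed to 0.518 to 6.94 TPM. The 6 neuron markers summed to 12.97 to 27.4 TPM, mostly from SNAP25 and GAD1. The 9 fibroblast markers, which glioblastoma lines also express, summed to 240 to 243 TPM in U87 sensitive libraries. They summed to 455 to 540 TPM in U87 resistant libraries, and to 1323 to 1710 TPM and 301 to 674 TPM in the U118 groups. Most of this came from COL1A1 and COL1A2, and in U118 also from THY1. Mitochondrially encoded genes took 12.9% to 16.9% of TPM in U87 sensitive and 22.2% to 23.7% in U87 resistant libraries, and 7.42% to 19.7% and 13.2% to 29.9% in the U118 groups. U118 resistant replicate 1 stood apart from replicates 2 and 3 as a whole library. Its mitochondrial share was 13.2%, beside 29.9% and 26.1%. It held 15193 genes at 1 TPM or more, beside 13270 and 13545. The part of these differences in the results was not tested, apart from a refit without the mitochondrial genes. In bulk RNA, fewer cells that express a gene and less of its RNA per cell cannot be told apart.

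Of the 31 members, 18 passed the filter on low values (1 TPM in at least 3 of the 6 libraries of a line) in both lines and 7 in U118 only, namely PLXNA4, PLXNC1, SEMA3E, SEMA3F, SEMA5A, SEMA6C and SEMA6D. The other 6, SEMA3D, SEMA3G, SEMA4A, SEMA4G, SEMA5B and SEMA6A, passed in neither line and did not exceed 1.39 TPM in any library. PLXNC1, SEMA3E, SEMA3F, SEMA6C and SEMA6D passed in U118 through their sensitive libraries alone, so that their differences were in part set by the filter. In U87, 2 members were called higher and 4 lower among the 18 tested, while 3.03% of all 13845 genes were called higher, 7.79% lower and 10.8% in either direction. In U118, 5 members were called higher and 9 lower among the 25 tested, while 8.64% of all 15527 genes were called higher, 26.6% lower and 35.3% in either direction. The median change of the members was -0.49 in U87 and -0.51 in U118, and that of all genes was -0.24 and -0.52. Scaling the libraries to a common median ratio, which brings the median of all genes to -0.01 in U87 and -0.02 in U118, left 2 members higher and 4 lower in U87 and gave 6 higher and 5 lower in U118. Of all genes called, 28% were higher in U87 as deposited and 55.1% after that scaling, and the same shares in U118 were 24.5% and 54%. Changes are therefore to be read against these medians.

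**Figure D1:**
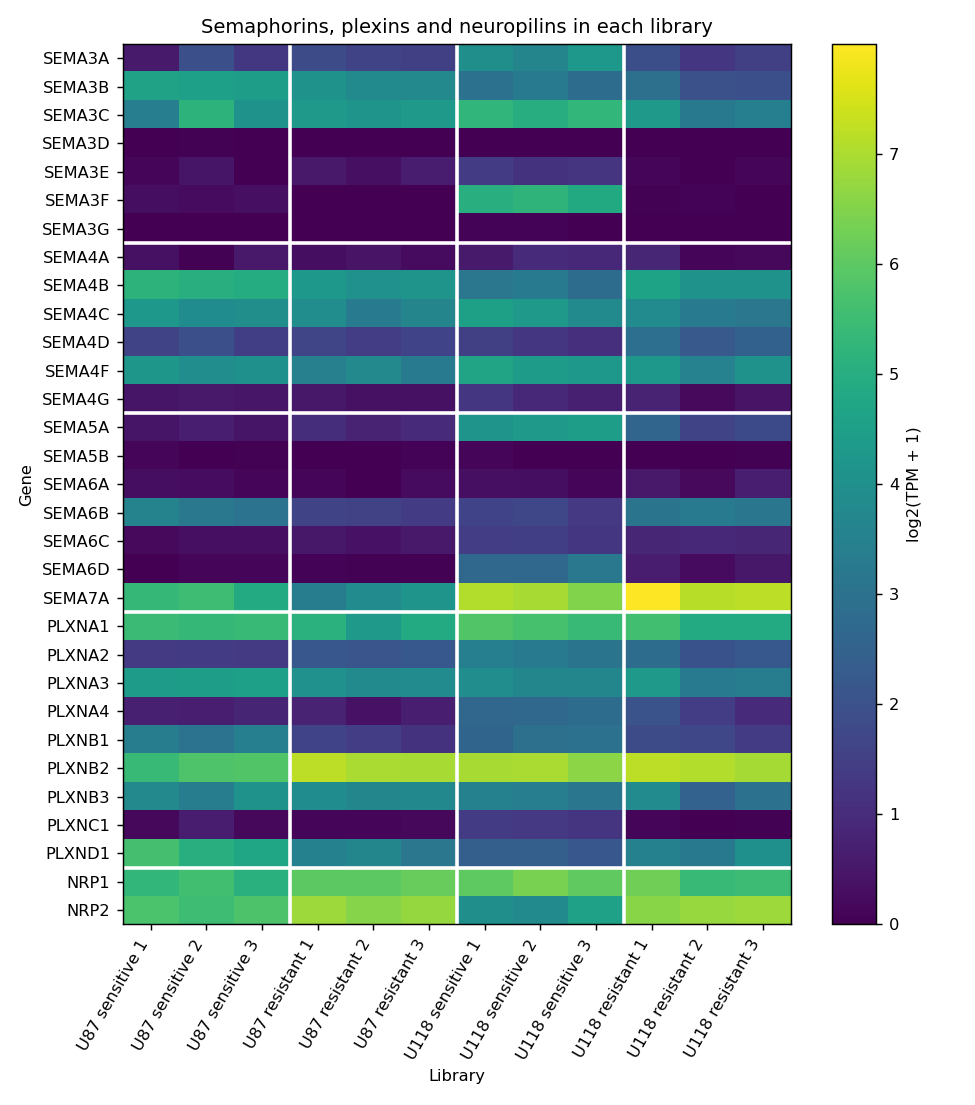
Level of the 31 genes (rows, by class) in each of the 12 libraries (columns), as log2(TPM + 1) on the colour scale, with white lines between groups and classes. PLXNB2, SEMA7A, NRP1 and NRP2 are the brightest rows, SEMA3F, SEMA5A and SEMA6D are bright mainly in the 3 U118 sensitive libraries, and SEMA3D, SEMA3G and SEMA5B are dark throughout.

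The order of levels differed between the groups. PLXNB2 and NRP2, at 50.5 and 50.1 TPM, led in U87 sensitive cells with ranges that overlapped, followed by PLXNA1, NRP1, SEMA7A and PLXND1. In U87 resistant cells PLXNB2 (132 TPM) stood above NRP2 (104 TPM) in every library, and NRP1 (64.6 TPM) came next. SEMA7A and PLXNB2 led in U118 sensitive cells, both at a mean of 115 TPM and overlapping, and again in U118 resistant cells at 180 and 134 TPM, where they overlapped as well. NRP2 came next there at 105 TPM. The summed level of the semaphorins was 139 to 177 TPM in U87 sensitive and 87.7 to 95.7 TPM in U87 resistant libraries, which did not overlap, whereas the U118 groups overlapped at 252 to 312 TPM and 203 to 361 TPM. The neuropilins summed to 86.5 to 91.3 TPM and 154 to 176 TPM in the U87 groups and to 78.1 to 96.4 TPM and 148 to 171 TPM in the U118 groups, without overlap in either line. As the lines were deposited in separate tables, levels were set side by side between lines but not tested.

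The proximal promoters of 3 members are printed, because the results turn on these genes: PLXNB1, called lower in both lines, SEMA3F, which was at 28 TPM or more in U118 sensitive cells and near 0 in the other groups, and SEMA7A, the most abundant semaphorin in U118. Each is the stretch of 237 bases upstream of the gene, from RefSeq (GRCh38.p14), at chr3:48430100-48430336 on the minus strand for PLXNB1, chr3:50154808-50155044 on the plus strand for SEMA3F and chr15:74433972-74434208 on the minus strand for SEMA7A. Capitals mark a match to the E-box that Snail-type repressors bind (CACCTG, searched on both strands and found here on the strand not printed).
PLXNB1: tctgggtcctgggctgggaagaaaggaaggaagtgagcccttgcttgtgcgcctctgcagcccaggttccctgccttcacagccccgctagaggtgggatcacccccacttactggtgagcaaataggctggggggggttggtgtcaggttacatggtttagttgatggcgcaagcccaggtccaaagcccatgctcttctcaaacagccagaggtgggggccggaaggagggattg
SEMA3F: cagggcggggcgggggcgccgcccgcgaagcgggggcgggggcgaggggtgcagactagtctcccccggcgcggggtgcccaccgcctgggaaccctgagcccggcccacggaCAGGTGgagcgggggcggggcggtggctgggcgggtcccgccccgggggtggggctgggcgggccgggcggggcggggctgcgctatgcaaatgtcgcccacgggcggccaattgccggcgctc
SEMA7A: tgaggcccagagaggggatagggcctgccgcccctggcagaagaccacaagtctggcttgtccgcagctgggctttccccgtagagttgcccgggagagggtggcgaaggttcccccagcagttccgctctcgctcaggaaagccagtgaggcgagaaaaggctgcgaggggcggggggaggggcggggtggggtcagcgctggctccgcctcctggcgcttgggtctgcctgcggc
The SEMA3F stretch had 31 CpG dinucleotides and 81.9% G and C, and more CpG than 91.6% of 35116 promoter windows of the same length, whose median was 10. The PLXNB1 stretch had 4 CpG and 59.5% G and C, and the SEMA7A stretch 15 CpG and 69.2% G and C. Only the SEMA3F stretch held the E-box, which 16.8% of all windows held. The core of the hypoxia response element (ACGTG or GCGTG, both strands), searched because the study also examined the hypoxia-inducible factors, was in none of the 3 and in 41.5% of all windows. Promoter methylation and factor binding were not measured in these libraries.

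NRP2 (ENSG00000118257; chr2:205681990-205798133, GRCh38), the neuropilin that binds SEMA3F and the lymphatic growth factor VEGFC, was at 51.8, 44.5 and 53.9 TPM in the U87 sensitive libraries and at 113, 91.9 and 106 TPM in the resistant ones. Every resistant U87 library lay above every sensitive one, with means of 50.1 ± 4.92 and 104 ± 10.9 TPM, a 2.07-fold difference (log2 change 1.04, SE 0.11, adjusted p = 0.000701). In U118, NRP2 was at 15.0, 13.3 and 22.7 TPM in sensitive and at 95.4, 107 and 112 TPM in resistant libraries. The U118 groups were far apart, at means of 17.0 ± 4.99 and 105 ± 8.67 TPM, a 6.19-fold difference (log2 change 2.59, SE 0.24, adjusted p = 3.8e-05). U118 sensitive cells thus had the lowest NRP2 of the 4 groups, and the resistant groups of both lines had means of 104 and 105 TPM. Leaving out U87 sensitive replicate 2 or U87 resistant replicate 1 brought the U87 change to 0.96 and 0.97, just under the size of 1.

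NRP1 (ENSG00000099250; chr10:33177492-33336262), the neuropilin of SEMA3A and a co-receptor of VEGFA, was at 38.1, 46.7 and 32.6 TPM in U87 sensitive and at 62.4, 61.6 and 69.9 TPM in U87 resistant libraries. The U87 groups did not overlap, but the change stayed under the size of 1 (log2 change 0.72, SE 0.14, adjusted p = 0.00693). In U118 sensitive libraries NRP1 was at 63.2, 83.1 and 65.0 TPM and in the resistant ones at 76.0, 40.9 and 43.7 TPM. Resistant replicate 1 lay among the sensitive libraries, the other resistant libraries lay below all of them, and the change was not called (log2 change -0.44, SE 0.27, adjusted p = 0.206). With median-ratio scaling that change was 0.12 in place of -0.44, so its direction rests on the scaling. Within each library, the ratio of NRP1 to NRP2 was 4.22, 6.24 and 2.87 in the U118 sensitive libraries and 0.796, 0.381 and 0.389 in the resistant ones. NRP1 was the more abundant neuropilin in every U118 sensitive library and NRP2 in every U118 resistant library. In U87 the ratios were 0.736, 1.05 and 0.604 and 0.55, 0.671 and 0.659, and these groups overlapped.

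Among the plexins, 1 was called higher and 2 lower in U87 (7 tested), and 1 was called higher and 3 lower in U118 (9 tested). Over all genes 3.03% were called higher and 7.79% lower in U87, and 8.64% and 26.6% in U118, and PLXNC1, one of the 3, passed the U118 filter only through the sensitive libraries. PLXNB1 (ENSG00000164050; chr3:48403854-48430051), the receptor of SEMA4D that activates RhoA through its associated exchange factors, was at 9.31, 7.34 and 9.996 TPM in U87 sensitive and 2.08, 1.71 and 1.24 TPM in U87 resistant libraries. The U87 groups were separate and differed 5.29-fold between their means (log2 change -1.89, SE 0.19, adjusted p = 0.000478). In U118 it was at 4.98, 6.77 and 6.85 TPM in sensitive and 2.55, 2.25 and 1.68 TPM in resistant libraries. These too did not overlap and differed 2.87-fold (log2 change -1.19, SE 0.23, adjusted p = 0.00293), though with median-ratio scaling the U118 change was -0.75, under the size of 1.

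PLXNB2 (ENSG00000196576; chr22:50274979-50307627), a class B plexin with class 4 semaphorin ligands, was at 41.5, 54.0 and 56.0 TPM in U87 sensitive and 146, 126 and 124 TPM in U87 resistant libraries. It rose 2.61-fold in U87, with no overlap (log2 change 1.38, SE 0.13, adjusted p = 0.000428). U118 sensitive libraries already held 122, 125 and 96.6 TPM, and the resistant ones 148, 133 and 121 TPM. The U118 groups overlapped and the change was not called (log2 change 0.22, SE 0.21, adjusted p = 0.379). As a share of the summed plexin TPM, PLXNB2 went from 23.4, 32.6 and 32.3% in U87 sensitive to 64.7, 67.5 and 64.5% in U87 resistant libraries, and it took 53.4, 56.1 and 53.1% and 59.4, 69.7 and 64.5% in the U118 groups. The ratio of PLXNB2 to PLXNB1 was 4.46, 7.36 and 5.60 in U87 sensitive and 70.2, 73.6 and 99.7 in U87 resistant libraries. In U118 the same ratio was 24.5, 18.4 and 14.1 in sensitive and 58.0, 58.9 and 72.0 in resistant libraries. This ratio, which does not depend on how libraries are scaled, did not overlap between sensitive and resistant libraries in either line.

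PLXNB3 (ENSG00000198753), the receptor of SEMA5A, was at 12.7, 9.44 and 15.7 TPM and 13.8, 11.6 and 12.2 TPM in the U87 groups and at 10.4, 9.61 and 7.78 TPM and 13.4, 4.73 and 6.98 TPM in the U118 groups. The groups overlapped in both lines and no change was called (0.01 in U87, adjusted p = 0.963, and -0.23 in U118, adjusted p = 0.593).

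PLXND1 (ENSG00000004399; chr3:129555175-129606818), which binds SEMA3E without a neuropilin and is best known from blood vessels, moved in opposite directions. It was at 49.4, 31.3 and 25.0 TPM in U87 sensitive and 10.5, 11.6 and 8.08 TPM in U87 resistant libraries. The U87 sensitive libraries spread widely but all lay above the resistant ones, with means 3.5-fold apart (log2 change -1.67, SE 0.26, adjusted p = 0.00282). In the U118 groups PLXND1 was at 4.31, 4.36 and 3.46 TPM in sensitive and 10.3, 8.34 and 15.1 TPM in resistant libraries. Here the resistant libraries were the higher ones, 2.78-fold in the means (log2 change 1.25, SE 0.27, adjusted p = 0.0046). The change in U118 exceeded that in U87 by 2.92 (adjusted p = 6.24e-05), and the resistant means of the lines were 10.1 ± 1.82 and 11.3 ± 3.49 TPM.

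PLXNA1 (ENSG00000114554), the most abundant of the plexin A receptors that pair with neuropilins, was at 42.3, 39.4 and 42.2 TPM in U87 sensitive and 33.6, 19.1 and 28.6 TPM in U87 resistant libraries. The resistant libraries were lower without overlap, by less than the size of 1 (log2 change -0.62, SE 0.20, adjusted p = 0.0428). In U118 it was at 55.8, 49.6 and 40.6 TPM and 46.6, 28.8 and 28.9 TPM, with overlap and no call (log2 change -0.50, SE 0.25, adjusted p = 0.128). PLXNA3 (ENSG00000130827), a receptor for SEMA3F signals, was at 19.9, 21.2 and 21.9 TPM and 15.4, 12.8 and 13.6 TPM in the U87 groups and at 14.3, 11.8 and 11.8 TPM and 18.5, 8.71 and 9.26 TPM in the U118 groups. Its U87 groups were separate with a change under the size of 1 (log2 change -0.56, SE 0.12, adjusted p = 0.00893), and its U118 groups overlapped (log2 change -0.12, SE 0.30, adjusted p = 0.755).

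PLXNA2 (ENSG00000076356), a receptor of class 6 semaphorins, was at 1.58, 1.66 and 1.55 TPM in U87 sensitive and 3.55, 3.36 and 3.63 TPM in U87 resistant libraries. In U118 the order was the other way, with 9.90, 8.82 and 7.45 TPM in sensitive and 6.04, 3.01 and 3.64 TPM in resistant libraries. Neither change reached the size of 1 (0.80 and -0.93, adjusted p = 0.00317 and 0.0204), and both did with a pseudocount of 0.1. Across the alternatives, the U87 change lay between 0.78 and 1.13. That in U118 lay between -1.16 and -0.46, the smallest with median-ratio scaling, and its adjusted p between 0.00114 and 0.0895. The difference between the lines passed its own test (-1.73, adjusted p = 0.000638).

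PLXNA4 (ENSG00000221866), which also binds class 6 semaphorins, was under 0.8 TPM in every U87 library and was tested in U118 only. There it was at 5.21, 5.46 and 6.05 TPM in sensitive and 3.17, 1.72 and 0.924 TPM in resistant libraries. The U118 groups did not overlap and PLXNA4 was called lower (log2 change -1.23, SE 0.29, adjusted p = 0.00784), a call that was lost without resistant replicate 3 (-0.96) and with median-ratio scaling (-0.83). PLXNC1 (ENSG00000136040), the plexin receptor of SEMA7A, was at 1.67, 1.49 and 1.35 TPM in U118 sensitive and 0.11, 0.0157 and 0.0381 TPM in U118 resistant libraries, and was called lower (log2 change -1.25, SE 0.15, adjusted p = 0.000218). In U87 it stayed at or below 0.554 TPM in all libraries.

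**Figure D2:**
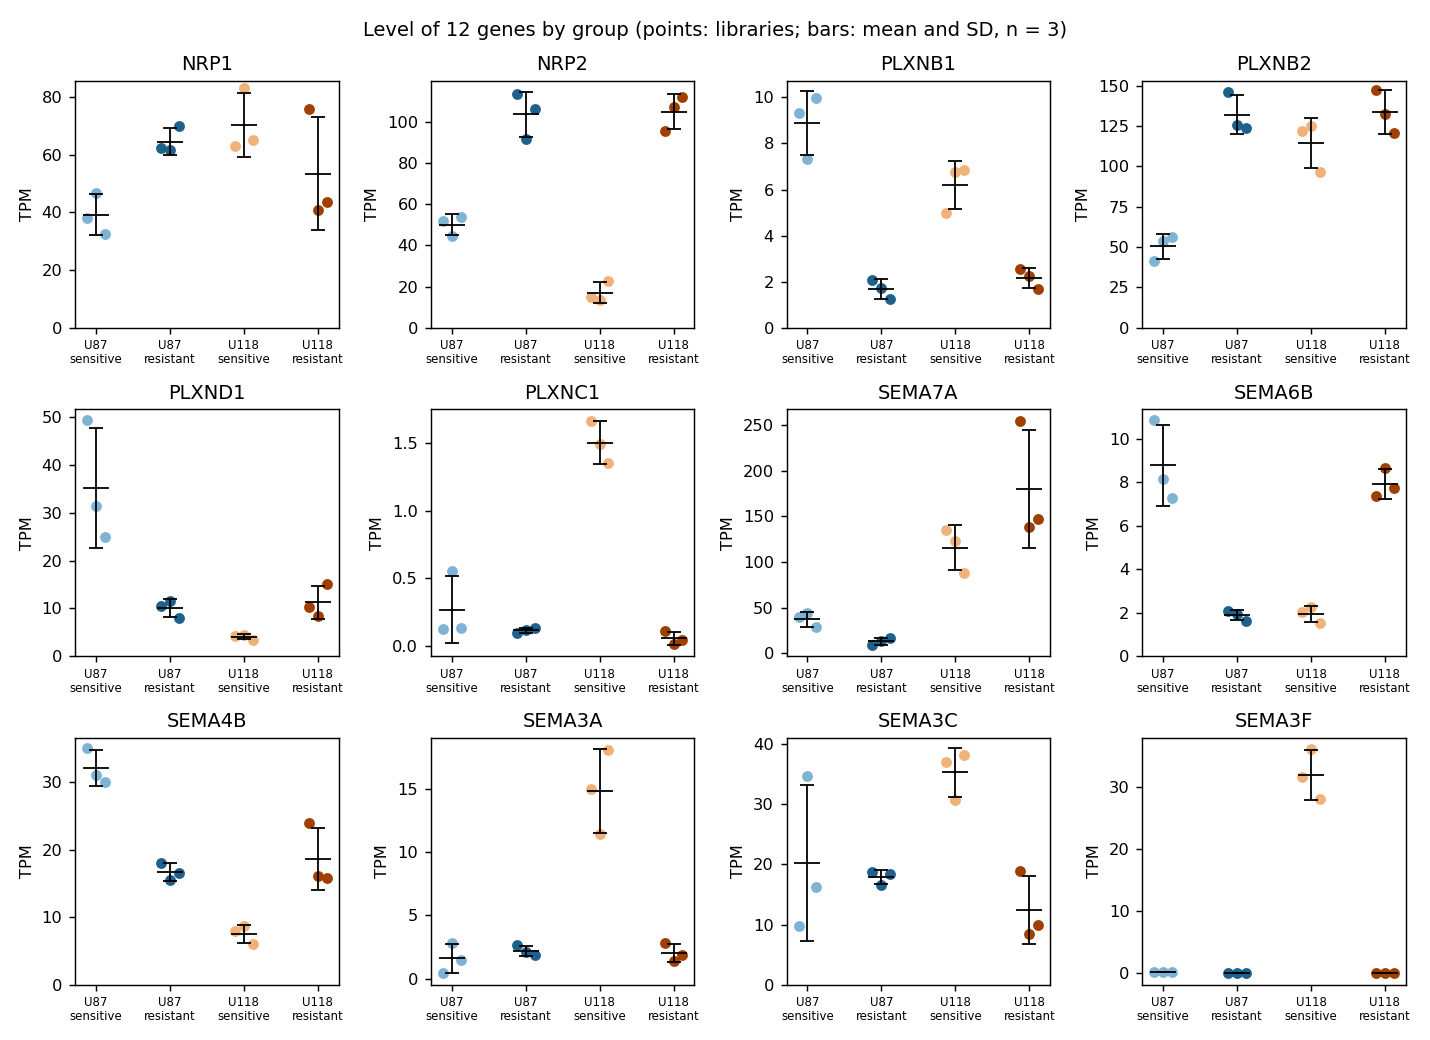
Level in TPM of 12 members in the 4 groups, with a point for each library and bars for the mean and SD (n = 3). NRP2 is higher and PLXNB1 lower in the resistant libraries of both lines, PLXND1 and SEMA6B cross over between the lines, and SEMA3A, SEMA3F and PLXNC1 are at their highest in U118 sensitive libraries.

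None of the 7 secreted class 3 semaphorins was called in U87, where 3 were tested, and 4 of the 5 tested in U118 were called lower, beside 26.6% of all genes. Of these 4, SEMA3E and SEMA3F passed the filter only through the sensitive libraries, in which they are high. SEMA3F (ENSG00000001617; chr3:50155045-50189075), a ligand of NRP2 described as a tumour suppressor on the short arm of chromosome 3, was at 31.7, 36.1 and 28.1 TPM in the U118 sensitive libraries and at 0.0391, 0.0598 and 0.0184 TPM in the U118 resistant ones. It was among the best expressed members in the U118 sensitive cells and near 0 in the resistant ones (log2 change -4.98, SE 0.22, adjusted p = 6.79e-07). In U87 it was at 0.228, 0.187 and 0.249 TPM in sensitive libraries and was listed at 0 in all 3 resistant ones. The size of the U118 change depends on the pseudocount, and ran from -9.43 to -4.70 over the alternatives that could be fitted. Changes of its tested neighbours on chromosome 3 were smaller. RBM5 was at 93.9 to 109 TPM in sensitive and 33.6 to 88.4 TPM in resistant U118 libraries and was called lower as well (-1.04, adjusted p = 0.0299). GNAI2 was at 398 to 453 TPM and 427 to 476 TPM and was not called (0.12, adjusted p = 0.640).

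SEMA3A (ENSG00000075213), the ligand of NRP1, was at 15.0, 11.4 and 18.0 TPM in U118 sensitive and 2.79, 1.42 and 1.84 TPM in U118 resistant libraries. It was 7.34-fold lower in the resistant mean, with no overlap (log2 change -2.39, SE 0.27, adjusted p = 0.000135). In U87 the levels were 0.495, 2.84 and 1.48 TPM in sensitive and 2.63, 2.09 and 1.89 TPM in resistant libraries, all below 3 TPM and overlapping (log2 change 0.40, SE 0.33, adjusted p = 0.383). The difference between the changes in U118 and U87 was -2.79 (adjusted p = 0.000308).

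SEMA3C (ENSG00000075223), which signals through both neuropilins and has been studied in glioma stem cells, was at 37.0, 30.7 and 38.3 TPM in U118 sensitive and 19.0, 8.44 and 9.94 TPM in U118 resistant libraries. The sensitive libraries were all higher, with resistant replicate 1 the nearest to them (log2 change -1.51, SE 0.30, adjusted p = 0.00326), and the change was -0.98 with median-ratio scaling. U87 sensitive libraries spread from 9.71 to 34.7 TPM (replicates at 9.71, 34.7 and 16.3 TPM), and the resistant ones at 18.7, 16.6 and 18.4 TPM lay within that spread. Hence SEMA3C did not differ detectably in U87 (log2 change 0.01, SE 0.40, adjusted p = 0.984). SEMA3E (ENSG00000170381), the ligand of PLXND1, was at 1.63, 1.24 and 1.36 TPM in U118 sensitive and 0.11, 0 and 0.112 TPM in U118 resistant libraries and was called lower (log2 change -1.16, SE 0.16, adjusted p = 0.000379), with a change of -0.99 under median-ratio scaling. In U87 it did not exceed 0.516 TPM.

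SEMA3C, SEMA3E and SEMA3A, together with SEMA3D, which passed the filter in neither line, lie in 1 stretch of chromosome 7 of 4.44 Mb (chr7:80742538-85186855). Of the 3 other protein-coding genes there that were tested in U118, 1 was called higher and 1 lower. SEMA3B (ENSG00000012171), which lies near SEMA3F on chromosome 3 and also signals through neuropilins, was at 23.1, 22.1 and 21.5 TPM and 15.7, 13.1 and 12.6 TPM in the U87 groups and at 7.13, 8.88 and 6.10 TPM and 6.73, 2.92 and 2.90 TPM in the U118 groups. The U87 groups were separate but differed by less than the size of 1 (log2 change -0.66, SE 0.12, adjusted p = 0.0058), while in U118 resistant replicate 1 lay among the sensitive libraries (log2 change -0.76, SE 0.32, adjusted p = 0.0721). Without that library the U118 change was -1.08 and passed the threshold. SEMA3D and SEMA3G were not tested.

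Of the 6 membrane-bound class 4 semaphorins, none was called in U87 and 2 were called higher in U118, with 4 tested in each line, beside 10.8% of all genes called in U87 and 8.64% called higher in U118. SEMA4B (ENSG00000185033) was at 35.1, 31.2 and 30.0 TPM in U87 sensitive and 18.1, 15.5 and 16.6 TPM in U87 resistant libraries. It was lower in every resistant U87 library, 1.92-fold in the means, just under the size of 1 (log2 change -0.90, SE 0.11, adjusted p = 0.00114). In U118 sensitive libraries it was at 8.01, 8.62 and 6.06 TPM and in resistant ones at 23.9, 16.2 and 15.8 TPM, 2.47-fold higher and without overlap (log2 change 1.19, SE 0.26, adjusted p = 0.00491). The difference between the lines was 2.09 (adjusted p = 6.29e-05).

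SEMA4D (ENSG00000187764), the ligand of PLXNB1, known as CD100 on immune cells, was at 1.86, 1.39 and 1.13 TPM in U118 sensitive and 6.65, 3.66 and 4.57 TPM in U118 resistant libraries. The resistant libraries were all higher, 3.39-fold in the means (log2 change 1.26, SE 0.25, adjusted p = 0.00323). U87 held 2.10, 2.83 and 1.81 TPM in sensitive and 2.17, 1.75 and 2.05 TPM in resistant libraries, which overlapped (log2 change -0.11, SE 0.17, adjusted p = 0.646). In the same U118 libraries its receptor PLXNB1 was lower, and PLXNB1 was lower in U87 as well.

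SEMA4C (ENSG00000168758), a ligand of PLXNB2, was at 18.2, 13.8 and 14.4 TPM and 14.2, 8.59 and 11.4 TPM in the U87 groups and at 22.2, 18.8 and 12.9 TPM and 13.5, 9.02 and 8.01 TPM in the U118 groups. The groups overlapped in both lines and neither change was called (-0.42 and -0.76, adjusted p = 0.142 and 0.0516). SEMA4F (ENSG00000135622) was at 18.0, 14.2 and 15.3 TPM and 10.1, 12.6 and 8.89 TPM in the U87 groups and at 24.7, 20.3 and 18.2 TPM and 18.3, 10.7 and 16.4 TPM in the U118 groups. Its U87 groups were separate and its U118 groups overlapped by a narrow margin, with changes under the size of 1 (-0.55 and -0.47, adjusted p = 0.0355 and 0.157). SEMA4A and SEMA4G were not tested.

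Among the 7 semaphorins of classes 5 to 7, 2 were called lower in U87 (2 tested), and 1 was called higher and 2 lower in U118 (5 tested), beside 7.79% of all U87 genes called lower, and 8.64% and 26.6% of all U118 genes called higher and lower. Of the U118 calls, SEMA6D passed the filter only through the sensitive libraries. SEMA7A (ENSG00000138623; chr15:74409289-74433958) was at 39.3, 44.6 and 28.6 TPM in U87 sensitive and 9.20, 13.5 and 16.6 TPM in U87 resistant libraries. It fell 2.87-fold in the U87 means, with no overlap (log2 change -1.46, SE 0.24, adjusted p = 0.00377). In U118 it was at 135, 123 and 88.1 TPM in sensitive and 255, 139 and 147 TPM in resistant libraries. These groups did not overlap either, with resistant replicate 1 far above the rest, but the change was not called (log2 change 0.60, SE 0.29, adjusted p = 0.105). It was called at 1.16 with median-ratio scaling, and was 0.33 without resistant replicate 1. The difference between the lines was 2.07 (adjusted p = 0.00125).

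As a share of the summed semaphorin TPM, SEMA7A made up 24.8, 25.3 and 20.6% in U87 sensitive and 9.61, 15.4 and 17.9% in U87 resistant libraries. In the U118 groups it made up 43.3, 42.4 and 35.0% and 70.4, 68.2 and 67.1%. This share does not depend on the scaling of the libraries, and it did not overlap between sensitive and resistant libraries in either line, being lower in resistant U87 and higher in resistant U118 libraries. It does depend on the other semaphorins. In U118 these included SEMA3F, with means of 32.0 TPM in sensitive and 0.0391 TPM in resistant cells, and the change of SEMA7A itself was not called.

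SEMA6B (ENSG00000167680; chr19:4542593-4559808), a transmembrane semaphorin that binds plexin A receptors, was at 10.9, 8.16 and 7.27 TPM in U87 sensitive and 2.09, 1.94 and 1.63 TPM in U87 resistant libraries. It was 4.65-fold lower in the U87 resistant mean (log2 change -1.75, SE 0.18, adjusted p = 0.000565). In the U118 groups it was at 2.03, 2.27 and 1.54 TPM in sensitive and 7.36, 8.66 and 7.72 TPM in resistant libraries, 4.07-fold higher in the latter (log2 change 1.60, SE 0.22, adjusted p = 0.00042). Neither pair of groups overlapped, and with a difference of 3.35 between the lines (adjusted p = 9.24e-07) SEMA6B had the largest positive value of the members tested.

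SEMA5A (ENSG00000112902), the ligand of PLXNB3, was at 16.6, 18.5 and 20.7 TPM in U118 sensitive and 5.08, 2.13 and 2.45 TPM in U118 resistant libraries. It fell 5.78-fold (log2 change -2.28, SE 0.30, adjusted p = 0.000304), and was at 0.38, 0.596 and 0.355 TPM and 1.05, 0.745 and 0.93 TPM in the U87 groups, too low for the test there. SEMA6D (ENSG00000137872), a ligand of PLXNA1, was at 5.48, 5.35 and 8.13 TPM in U118 sensitive and 0.549, 0.174 and 0.433 TPM in U118 resistant libraries and was called lower (log2 change -2.39, SE 0.23, adjusted p = 4.59e-05). No U87 library held more than 0.111 TPM of it. SEMA6C (ENSG00000143434) was at 1.72, 1.77 and 1.39 TPM and 0.804, 0.874 and 0.828 TPM in the U118 groups, which were separate but under the size of 1 (log2 change -0.51, SE 0.17, adjusted p = 0.0317). SEMA5B and SEMA6A were not tested.

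The changes of ligands and their known receptors can be set side by side. SEMA3F and its receptor NRP2 had changes of -4.98 and 2.59 in U118. SEMA3F, like SEMA3E and PLXNC1 below, passed the U118 filter only through the sensitive libraries, so that these falls were in part set by the filter. SEMA3A and NRP1 had changes of -2.39 and -0.44, of which only the first was called. SEMA3E was lower and PLXND1 higher, at -1.16 and 1.25. SEMA4D was higher and PLXNB1 lower, at 1.26 and -1.19. SEMA5A and PLXNB3 had U118 changes of -2.28 and -0.23, and SEMA4C and PLXNB2 of -0.76 and 0.22, of which only that of SEMA5A was called. In U87, SEMA4D and PLXNB1 had changes of -0.11 and -1.89, and SEMA3A and NRP1 of 0.40 and 0.72. Of these only that of PLXNB1 was called, and SEMA3F and SEMA3E were not tested in U87. Of the receptors of SEMA7A, PLXNC1 was lower in U118, and ITGB1, encoding integrin beta 1, was at 387 ± 19.2 TPM in sensitive and 205 ± 83.2 TPM in resistant libraries, just under the size of 1 (log2 change -0.98, SE 0.28, adjusted p = 0.0174). In U87, where PLXNC1 was under 1 TPM throughout, ITGB1 was at 171 ± 78.0 and 254 ± 25.2 TPM and was not called (log2 change 0.66, SE 0.28, adjusted p = 0.106).

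A difference between the lines was tested for each member as the change in U118 minus that in U87. The fit over all 12 libraries took a common spread for both lines. For SEMA3F the SE of the difference was thus 0.19, below the 0.22 of its U118 change alone. An adjusted p may therefore be too small where the lines differ in spread. A difference was called for 17 of the 25 members tested, 6 of them positive and 11 negative. Over all 16382 genes 12% were called positive, 18.5% negative and 30.5% in either direction. SEMA3E, SEMA3F, SEMA6D and PLXNC1 entered this test only through the U118 sensitive libraries, in which they are high. Their negative differences were thus in part set by the filter. Leaving out 1 U118 sensitive library left 20 members tested and 5 or 6 negative calls. Of the 18 members tested in both lines, 4 (22.2%) were called in both, beside 655 of 13217 genes (4.96%), and 2 of the 4 had the same direction in both lines, beside 436 of the 655. NRP2 was higher in both and PLXNB1 lower in both, whereas PLXND1 and SEMA6B were lower in U87 and higher in U118. On the log2 scale the U118 resistant mean of NRP2 lay 0.0192 from U87 resistant and 2.59 from U118 sensitive cells. The same distances were 0.24 and 1.19 for PLXNB1, 0.121 and 1.25 for PLXND1, and 1.63 and 1.60 for SEMA6B. The rise of NRP2 was larger in U118 by 1.56 (adjusted p = 0.000517), and the changes of PLXNB1 did not differ detectably (log2 change 0.70, SE 0.29, adjusted p = 0.0784).

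**Figure D3:**
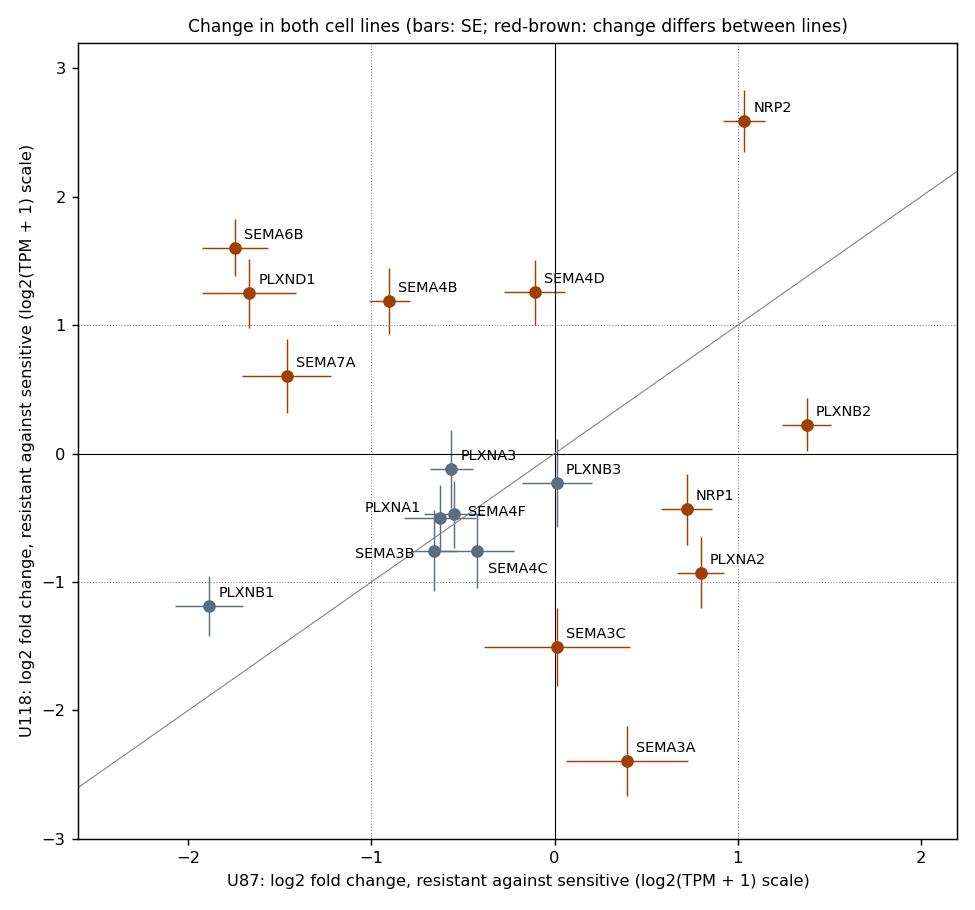
Change of the 18 members tested in both lines, U87 on the x axis and U118 on the y axis, in units of log2(TPM + 1) with SE bars; the diagonal marks equal changes, the dotted lines a size of 1, and red-brown points are members whose change differed between the lines. SEMA6B and PLXND1 sit in the upper left, NRP2 in the upper right above the diagonal, and PLXNB1 in the lower left.

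Partners of the pathway were read from a list of 62 genes: 14 co-receptors, 5 VEGF family ligands, 7 proteases and 36 effectors inside the cell. In U87, 3 of the 46 tested were called higher and 2 lower (10.9% called, beside 10.8% of all genes), with a median change of -0.18. In U118, 3 of the 48 tested were called higher and 17 lower (41.7%, beside 35.3%), with a median of -0.73 that lies below the -0.52 of all genes. With median-ratio scaling the U118 counts were 8 higher and 8 lower, beside 2346 higher and 1996 lower of all 15383 genes. By role, 4 of 7 tested co-receptors, 2 of 4 VEGF ligands and 2 of 5 proteases were called lower in U118. Of 32 effectors 9 were called lower and 3 higher. Over all U118 genes 26.6% were called lower and 8.64% higher. The co-receptors KDR and PTK7 passed the U118 filter only through the sensitive libraries, so that their falls were in part set by the filter.

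Of the 46 pathway genes tested in both lines, 4 (8.7%) were called in both, beside the 4.96% of all genes. PTK7, a receptor-like kinase reported to bind plexin A receptors, was at 0.269 ± 0.065 and 2.25 ± 0.981 TPM in the U87 groups and at 11.1 ± 1.64 and 0.134 ± 0.0624 TPM in the U118 groups, higher in U87 (1.32, adjusted p = 0.00351) and lower in U118 (-3.41, adjusted p = 3.08e-06). PTK7 passed the filter in U87 only through the resistant libraries and in U118 only through the sensitive ones. Both of its directions were therefore in part set by the filter. ADAMTS1, a secreted metalloprotease, rose from 27.1 ± 4.92 to 84.7 ± 6.86 TPM in U87 (1.62, adjusted p = 0.000306) and fell from 209.7 ± 25.9 to 43.1 ± 16.6 TPM in U118 (-2.31, adjusted p = 0.000178). ARHGEF12, the exchange factor that links PLXNB1 to RhoA, was lower in both (-1.01 and -1.79, adjusted p = 0.018 and 0.000443), as was the kinase PAK2 (-1.07 and -1.26, adjusted p = 0.00574 and 0.00221). Both U87 calls were lost with median-ratio scaling and without the mitochondrial genes.

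The other genes named by size were MMP14, ERBB2 and PGF. MMP14, a membrane protease, was at 219 ± 19.0 and 587 ± 34.2 TPM in the U87 groups (log2 change 1.42, SE 0.08, adjusted p = 8.53e-05), and at 677 ± 45.9 and 366 ± 55.7 TPM in the U118 groups, where the change was under the size of 1 (-0.90). ERBB2, a receptor kinase that associates with class B plexins, was at 38.5 ± 6.78 TPM in U118 sensitive and 1.64 ± 0.723 TPM in U118 resistant libraries (log2 change -3.92, SE 0.27, adjusted p = 6.67e-06). PGF, a VEGF family ligand that binds neuropilins, was at 25.0 ± 6.10 TPM and 1.46 ± 0.401 TPM in the same groups (log2 change -3.39, SE 0.27, adjusted p = 1.37e-05). In U87 sensitive cells ERBB2 was at 2.53 ± 0.697 TPM, and PGF did not pass the filter there.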

How the data were processed

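mRNA libraries were made from total RNA by the authors and sequenced, and per the labels reads were handled with FastQC 0.11.2, Trimmomatic 0.36, HISAT2 2.0 and bedtools 2.26.0 on GRCh38; the annotation and the tool that computed TPM are not given in the sources used here. The authors deposited TPM values per gene, 1 table per line. Depth cannot be read from TPM values, and no counting interval is given. Groups and replicate numbers came from the labels. Values were taken as log2(TPM + 1) and fitted with limma 3.58.1 (lmFit, eBayes with trend) in R 4.3.3, within each line over genes at 1 TPM or more in at least 3 of 6 libraries, and over all 12 libraries for the difference between lines, with Benjamini-Hochberg adjustment over all genes tested. The fit was tested on simulated data. Positions are from GENCODE release 29 (GRCh38). Promoters were matched by symbol in a RefSeq table, which held 27 of the 31 members, and trimmed to 237 bases upstream. Tables were handled with pandas 2.3.3 in Python 3.11.15 and figures drawn with matplotlib 3.10.9. The members and lists were chosen with earlier results of these data known. Described in every library were members called in a line or at a group mean of 10 TPM or more; pathway genes named were those called in both lines and the 4 called with the largest change in each. PLXNA2, SEMA6C, KDR and the integrin ITGB1 were added after their values were seen, as were the neighbours of SEMA3F. Alternatives were other pseudocounts, filters, scalings and tests, no fold threshold, a replicate block, and each library left out.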

Additional observations from a re-analysis of the deposited data

Results flagged for a closer look

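The change from sensitive to resistant cells differed between U118 and U87, by a test of the difference itself over all 12 libraries (limma, Benjamini-Hochberg adjusted p under 0.05 and a difference of at least 1 on the log2(TPM + 1) scale), for 17 members. The libraries labelled U118 resistant, which correlated more strongly with U87 than with U118 sensitive libraries, enter each of these values, and their part in them was not tested. Values are the U118 change minus the U87 change.

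Positive differences were found for SEMA6B (3.35), PLXND1 (2.92), SEMA4B (2.09), SEMA7A (2.07), NRP2 (1.56) and SEMA4D (1.36). For SEMA6B and PLXND1 every U87 resistant library was lower and every U118 resistant library higher than all sensitive libraries of the same line, and the same held for SEMA4B and SEMA7A.

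Negative differences were found for SEMA3F (-4.69), SEMA3A (-2.79), SEMA5A (-2.68), SEMA6D (-2.36), PLXNA2 (-1.73), SEMA3C (-1.52), SEMA3E (-1.45), NRP1 (-1.16), PLXNB2 (-1.15), PLXNA4 (-1.10) and PLXNC1 (-1.08). SEMA3E, SEMA3F, SEMA5A, SEMA6D, PLXNA4 and PLXNC1 were too low in U87 to be tested in that line alone, and SEMA3E, SEMA3F, SEMA6D and PLXNC1 entered the test of the difference only through the U118 sensitive libraries, in which they are high, so that their differences were in part set by the filter. With median-ratio scaling the differences of NRP1, PLXNA4, PLXNB2 and PLXNC1 were between -0.91 and -0.80, under the size of 1. The adjusted p of SEMA3C exceeded 0.05 in several fits that left out 1 library. Over the alternatives that kept the fold threshold, the difference of SEMA3C was called in 9 of 20 and that of PLXNA4 in 12 of 19. Their highest adjusted p was 0.0969 and 0.142.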

How the results depend on the processing

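Over all alternatives, the 2 members called higher in U87 became 4 with no fold threshold and ranged from 1 to 2 with a library left out; the 4 called lower became 2 at a mean of at least 10 TPM and 9 with no fold threshold. In U118 the 5 called higher became 2 and the 9 called lower became 3 at a mean of at least 10 TPM, which tests fewer members, and the 9 became 5 with median-ratio scaling and 5 to 11 with a library left out; 5 came from leaving out sensitive replicate 1 or 2, which takes genes expressed only in sensitive libraries below the filter, and 11 from leaving out resistant replicate 1. The 11 negative differences between lines became 3 at that mean, 6 with median-ratio scaling and 5 to 11 with a library left out (6 without U118 sensitive replicate 1 or 2 and 5 without replicate 3). Pathway genes higher in U87 became 5 with no fold threshold; those lower became 4 with a pseudocount of 0.1 or 0.01, 0 with median-ratio scaling, 0 without mitochondrial genes, 11 with no fold threshold and 0 to 3 with a library left out (1 without U87 sensitive replicate 2 and 0 without U87 resistant replicate 2). In U118, pathway genes higher became 8 and lower 8 with median-ratio scaling, and 5 and 28 with no fold threshold. Counts over all genes moved as well. No fold threshold gave 1306 higher and 4107 lower in U87, beside 419 and 1078. In U118, 4134 lower of 15527 became 2152 of 8621 at a mean of at least 10 TPM. They became 1996 of 15383 with median-ratio scaling and 5627 of 14658 without resistant replicate 1. The 3025 negative differences of all genes became 1100 of 8228 at that mean and 2377 of 16173 with median-ratio scaling. Beyond what these constructions show, the cause was not tested.

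Of the values for single members under the alternatives, 235, 302 and 436 kept direction and side of the threshold (U87, U118 and difference), 2, 5 and 23 lost the call, 2, 6 and 2 gained it and 8, 9 and 11 changed sign. None of the latter was called. With median-ratio scaling these were SEMA4D in U87 (0.073), SEMA4F (0.056), PLXNA1 (0.047), PLXNA3 (0.39), PLXNB3 (0.26) and NRP1 (0.12) in U118, and the difference of SEMA3B (0.072). Without mitochondrial genes PLXNA3 was 0.058 in U118. With a library left out, U87 values ranged from -0.39 to 0.48 for SEMA3C, -0.21 to 0.019 for SEMA4D and -0.17 to 0.18 for PLXNB3; U118 values from -0.45 to 0.058 for PLXNA3 and -0.59 to 0.072 for PLXNB3; and differences from -0.43 to 0.064 for SEMA3B, -0.070 to 0.30 for SEMA4F, -0.10 to 0.29 for PLXNA1 and -0.61 to 0.058 for PLXNB3.

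The deviations of same-numbered libraries correlated at -0.07 to 0.01 in U87 and at 0.05 to 0.14 in U118, where each sample correlated best with its own number, a hint from the data only; the numbers were not taken as pairs. With the replicate number as a block the counts were 2 higher and 4 lower in U87, 5 and 9 in U118, and 6 and 11 for the difference. Depth is unknown, so levels under 1 TPM carry no detection limit.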
